A study of Mus musculus with 6 samples.

Results

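The genes described here are Akt1 and Akt2, which encode serine/threonine kinases of the protein kinase B family, and Pdpk1, which encodes the kinase that activates them. They were measured in 6 mouse mammary tumour cell lines, 3 with both copies of Akt1 (lines 31, 101 and 102, akt(+/+)) and 3 without Akt1 (lines 72, 75 and 116, akt(-/-)), with a single array per line. Per the labels, all 6 lines came from tumours that arose in animals carrying ErbB2 under the MMTV promoter, which is active in mammary epithelium, so the receptor oncogene was shared by both genotypes. All lines were grown in medium with serum, insulin, hydrocortisone, EGF and cholera toxin, fibroblasts had been thinned out by a brief culture from which the suspended cells were kept, and many passages followed. The labels used here give neither the age of the animals, how Akt1 was deleted, nor whether a line is 1 clone or shares its animal with another, so the spread is that between these lines. Members were all probe sets, the groups of probes that read out a transcript, whose deposited symbol is Akt1, Akt2 or Pdpk1. There were 4 such probe sets among the 45037 that are not controls, and the 3 genes are among 4462 genes named in the files.

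The way the symbols were deposited chose the members. A symbol is present for 5604 probe sets, each with a deposited p-value under 0.05 for knockout against wild type, and for 0 probe sets above that limit. Any probe set of Akt1, Akt2 or Pdpk1 that differed less therefore carries no name and was not analysed here. Another 265 probe sets under the limit have no symbol, so a member probe set that did differ may also be missing. The knockout minus wild type differences of the 4 members are for that reason given as a description, without a test. In the authors' deposited table their p-values were 2.47e-06 and 2.98e-05 for the Akt1 probe sets, 0.000982 for Pdpk1 and 0.0395 for Akt2. Akt2 was the member nearest the limit, with 1006 probe sets from its p-value up to 0.05. The first probe set beyond the limit has no symbol and differed by 0.30 log2 units. Probe sets with the deposited symbol Pdk1 belong to pyruvate dehydrogenase kinase by their deposited gene name, although Pdk1 is also a synonym of Pdpk1, and were not counted as members.

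Growth factor receptors such as ErbB2 and its partners activate phosphoinositide 3-kinase, which makes the membrane lipid PIP3. Akt kinases and the Pdpk1 product both bind PIP3 through pleckstrin homology domains, and there the Pdpk1 kinase phosphorylates the activation loop of Akt, while the kinase complex mTORC2 phosphorylates its hydrophobic tail. Active Akt phosphorylates proteins that control survival, the cell cycle, metabolism and growth. Akt1 and Akt2 share many substrates. Akt1 is known for its part in cell survival and growth, the mammary epithelium included, and Akt2 for glucose metabolism in tissues that respond to insulin. These activities depend on phosphorylation, which arrays of RNA do not measure.

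In the RefSeq annotation of GRCm38.p6, Akt1 lies at chr12:112653821-112674884, Akt2 at chr7:27591552-27640826 and Pdpk1 at chr17:24073680-24155619. The promoter windows below, from RefSeq on the same build, run from 250 bases before to 50 after an annotated start. They are shown as a description of the 3 genes, and a link between these sequences and the lower probe sets was not tested. RefSeq has 2 starts for Akt1, 4 for Akt2 and 2 for Pdpk1 in this table. For Akt2 and Pdpk1 the start with the highest ratio of observed to expected CpG is printed, and for the deleted gene both starts. All read 5′ to 3′ on the strand of the gene, and capitals mark matches on either strand to the GC box GGGCGG, to the CCAAT box, to the TATA box TATAAA or to the forkhead core GTAAACA. Forkhead factors include the FoxO proteins that Akt phosphorylates.
Akt1, upstream start, chr12:112674835-112675134, minus strand: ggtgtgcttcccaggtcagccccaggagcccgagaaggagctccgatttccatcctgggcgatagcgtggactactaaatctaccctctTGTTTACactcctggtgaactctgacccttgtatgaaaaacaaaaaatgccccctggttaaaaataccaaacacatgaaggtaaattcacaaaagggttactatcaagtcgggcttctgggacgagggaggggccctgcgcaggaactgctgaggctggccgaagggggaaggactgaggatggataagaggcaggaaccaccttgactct
Akt1, downstream start, chr12:112674227-112674526, minus strand: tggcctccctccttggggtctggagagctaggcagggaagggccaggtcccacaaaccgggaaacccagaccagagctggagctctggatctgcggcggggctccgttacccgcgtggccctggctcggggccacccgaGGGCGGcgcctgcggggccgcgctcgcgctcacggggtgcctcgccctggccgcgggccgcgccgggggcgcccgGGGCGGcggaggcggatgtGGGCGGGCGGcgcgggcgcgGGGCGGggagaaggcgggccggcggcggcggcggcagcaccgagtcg
Akt2, chr7:27591302-27591601, plus strand: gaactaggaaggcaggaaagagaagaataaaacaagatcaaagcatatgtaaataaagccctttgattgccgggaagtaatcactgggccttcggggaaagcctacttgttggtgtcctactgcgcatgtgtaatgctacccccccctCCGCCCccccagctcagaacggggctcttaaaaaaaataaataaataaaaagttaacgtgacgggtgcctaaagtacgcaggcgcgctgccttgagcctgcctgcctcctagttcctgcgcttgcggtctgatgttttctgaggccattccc
Pdpk1, chr17:24141545-24141844, minus strand: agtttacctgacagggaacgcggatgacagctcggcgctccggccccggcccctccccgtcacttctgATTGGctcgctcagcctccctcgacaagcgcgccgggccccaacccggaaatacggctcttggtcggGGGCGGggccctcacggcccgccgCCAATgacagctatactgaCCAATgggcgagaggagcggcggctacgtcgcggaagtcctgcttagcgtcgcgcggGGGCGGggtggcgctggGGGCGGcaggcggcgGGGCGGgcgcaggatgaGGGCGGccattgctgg

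The downstream Akt1 window and the Pdpk1 window were both GC-rich, at 79.7% and 71.7% G and C, with CpG ratios of 0.906 and 0.967. Each held 5 GC boxes, of which a pair in Akt1 share letters, and Pdpk1 also held 3 CCAAT matches. The Pdpk1 window was picked by its CpG ratio. The other Pdpk1 start had 48% G and C, a ratio of 0.0601 and no match to these motifs. The Akt2 window had 50% G and C and a single GC box. The upstream Akt1 window held the forkhead core once and no GC box. Of all 32851 windows of this length, 35.7% held a GC box, 37.4% a CCAAT match, 3.65% the forkhead core and 13.6% a TATA match, which none of the 4 printed windows held. Matches of different motifs did not overlap in these windows. The matches describe the letters and do not show that a factor binds there.

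Akt1 was the gene with the widest separation between genotypes. Its first probe set, 1416657_at, read 9.71, 10.09 and 10.03 log2 units in wild-type lines 31, 101 and 102, and 4.62, 4.57 and 4.38 in knockout lines 72, 75 and 116. All wild-type lines were high and all knockout lines low, with no overlap. The means were 9.94 ± 0.20 and 4.53 ± 0.13 (SD, n = 3 each), a log2 difference of -5.42 (limma standard error 0.15) or 42.8-fold. The lowest wild-type line lay 5.09 log2 units above the highest knockout line, and no other probe set on the array had a gap in this direction as wide.

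The other Akt1 probe set, 1425711_a_at, gave the same order of genotypes over a smaller range. It read 6.75, 7.12 and 7.17 in lines 31, 101 and 102, and 4.10, 3.97 and 3.91 in lines 72, 75 and 116. Again the groups did not overlap, and the log2 difference was -3.02 (standard error 0.16), with means of 7.01 ± 0.23 and 3.99 ± 0.10 (SD, n = 3 each). Its gap between the nearest lines was 2.65, and 2 other probe sets had one at least as wide.

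The remaining Akt1 signal in the knockout lines was not at the bottom of the arrays, by a rank of brightness that also depends on the probes. On the first probe set, 34.2% to 38.1% of all probe sets read lower in the knockout lines, against 91.4% to 93.7% in the wild-type lines. On the second, 26.6% to 29.6% read lower in the knockout lines and 65.8% to 70.1% in the wild-type lines. The lower quartile of the arrays lay between 3.71 and 3.81, below both probe sets in each knockout line. The sources used here do not place these probes relative to the deleted part of Akt1, so the remaining signal cannot be assigned to a shortened transcript or to background. Where it is background, the fold of either probe set is a lower bound set by its own brightness, and the folds of the probe sets are not comparable.

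**Figure D1:**
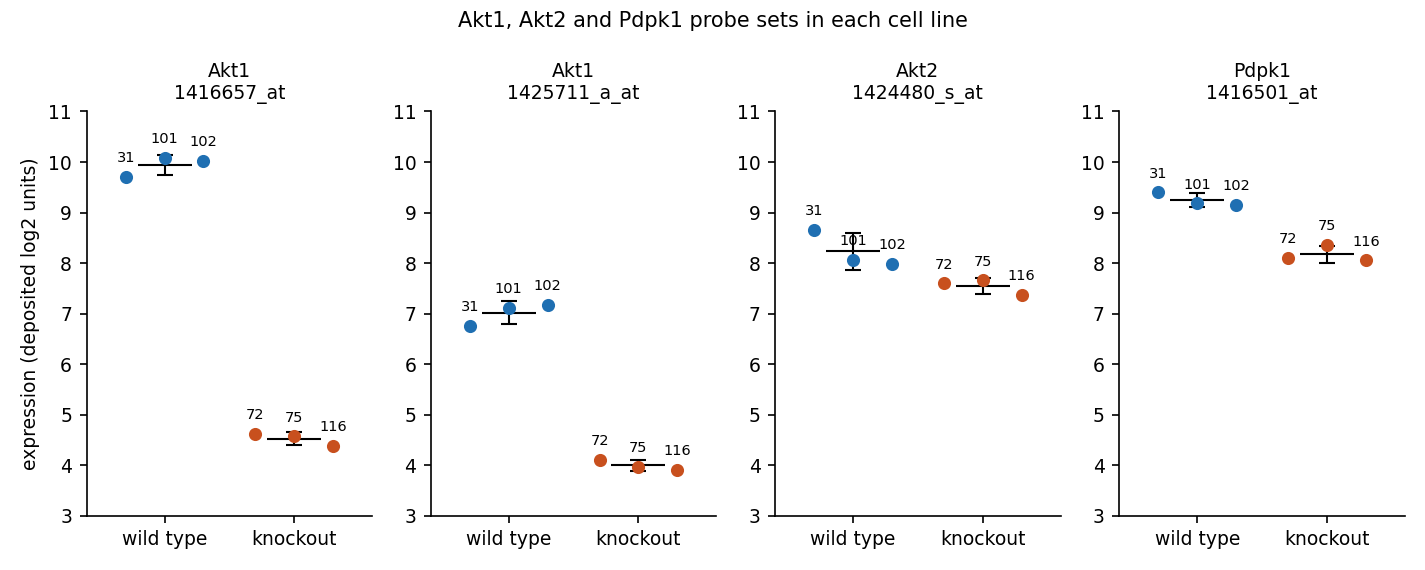
Deposited log2 expression (vertical axis) of the 4 probe sets in each cell line, named beside its point, by Akt1 genotype, with bars for the group mean and SD (n = 3 each). The Akt1 probe sets differ between genotypes by -5.42 and -3.02 log2 units, while the differences are -1.07 for Pdpk1 and -0.69 for Akt2, and no panel shows overlap.

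Pdpk1, the upstream kinase gene, was lower in the knockout lines 2.09-fold. Its single named probe set, 1416501_at, read 9.40, 9.18 and 9.15 in wild-type lines 31, 101 and 102, and 8.10, 8.36 and 8.06 in knockout lines 72, 75 and 116. The wild-type lines were close together and all above the knockout lines. The means were 9.24 ± 0.14 and 8.18 ± 0.17 (SD, n = 3 each), a log2 difference of -1.07 (standard error 0.15). The nearest lines, wild-type 102 and knockout 75, were 0.79 log2 units apart, and 0.622% of all probe sets had a gap in this direction at least as wide. These were 280 of the 4877 probe sets that were lower without overlap. The naming used the same contrast, so this share is a description.

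Akt2, the relative of Akt1, had the smallest difference of the 4 probe sets. Probe set 1424480_s_at read 8.66, 8.07 and 7.98 in wild-type lines 31, 101 and 102, and 7.60, 7.66 and 7.37 in knockout lines 72, 75 and 116. Line 31 stood above the other wild-type lines, and lines 101 and 102 each lay nearer to the closest knockout line than to line 31. The means were 8.24 ± 0.37 and 7.55 ± 0.15 (SD, n = 3 each), a log2 difference of -0.69 (standard error 0.21) or 1.61-fold. Wild-type line 102 and knockout line 75 were 0.32 log2 units apart, and 3.25% of all probe sets had a gap in this direction at least as wide. These were 1463 of the 4877 probe sets that were lower without overlap. The naming used the same contrast, so this share is a description. Without line 31 the difference was -0.48, and between group medians it was -0.46. The suffix s marks, in the naming of this kind of array, a probe set whose probes can match more than 1 transcript, so a part of this signal may come from another gene.

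None of the 3 genes was named with a probe set that was higher without Akt1. All 4 probe sets were lower in the knockout lines without overlap, as were 10.8% of all probe sets and 50.8% of named genes at their brightest probe set, while 11.1% of all probe sets were higher without overlap. The naming of the members used this same contrast, so nothing is read from that count. By size of difference the Akt1 probe sets ranked 1 and 6 among 45037, Pdpk1 ranked 1335 and Akt2 4300.

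**Figure D2:**
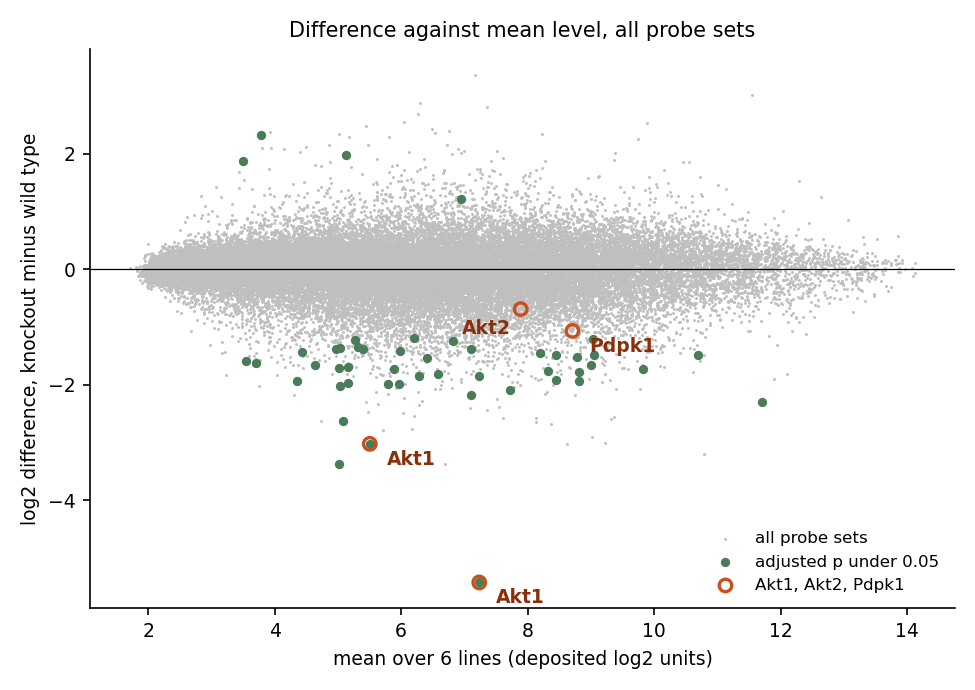
The log2 difference, knockout minus wild type, against the mean over the 6 lines (both in log2 units) for all 45037 probe sets, with the 48 at an adjusted p under 0.05 (limma) as filled points and the 4 members as open circles. The Akt1 circles lie at -5.42 and -3.02, while those of Akt2 (-0.69) and Pdpk1 (-1.07) lie near the lower edge of the dense cloud.

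Within a genotype the members did not move together in the wild-type lines. Line 31 was the lowest wild-type line on both Akt1 probe sets, 0.23 and 0.26 below the group mean, and the highest on Akt2 and Pdpk1, 0.42 and 0.15 above it. Among the knockout lines, line 116 was the lowest on all 4 probe sets, by 0.08 to 0.17 below the group mean. Over the whole array line 116 was the lowest knockout line on 34.6% of probe sets, and line 31 was the lowest wild-type line on 37.8% and the highest on 32.2%. The median of line 116, 5.44, was the highest of the knockout arrays, which ran from 5.41 to 5.44. With 3 lines per genotype these orders are descriptions of the lines.

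**Figure D3:**
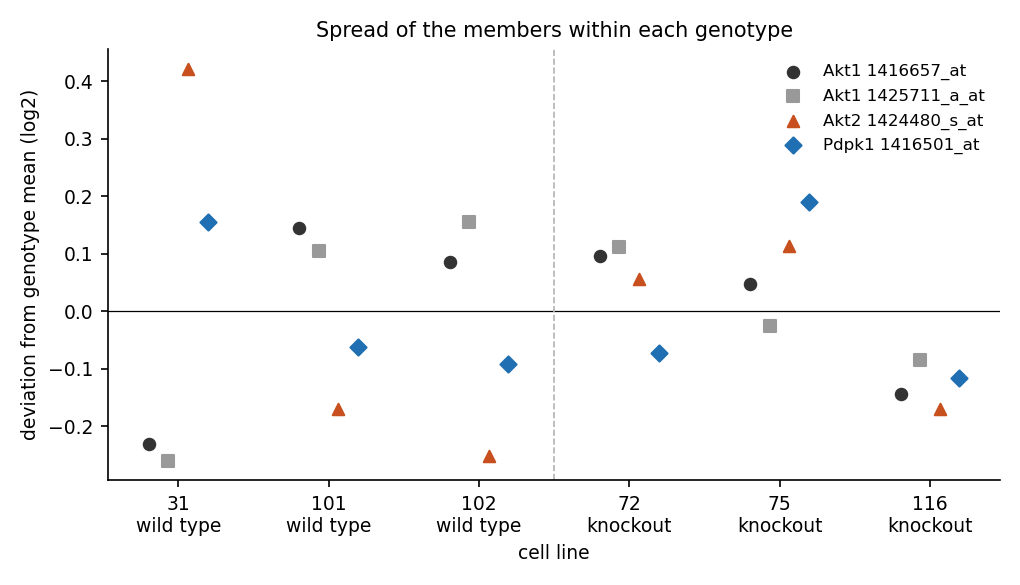
Deviation of each line from its own genotype's mean (log2 units, vertical axis) for the 4 probe sets, with wild-type lines left and knockout lines right of the dashed line. Line 31 is 0.42 above its mean on Akt2 and 0.23 and 0.26 below on Akt1, and all 4 points of line 116 are below 0.

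The genes most like each member over the 6 lines were taken by Pearson correlation among 4113 named genes. For Akt1 they were Crtc3, a CREB coactivator gene (r = 0.998), Inppl1, which encodes the PIP3 phosphatase SHIP2 (0.998), Klhdc3 (0.997) and B3galt5, a galactosyltransferase gene (0.996). For Pdpk1 they were Safb2, a nuclear matrix-binding protein gene (0.998), Tiam2, an activator of Rac (0.997), Crebbp, a histone acetyltransferase gene (0.997), and LOC622320 (0.997). For Akt2 they were Rrp8, listed as 1500003O22Rik (0.994), Unk, listed as Zc3h5 (0.992), Arl6ip1 (0.991) and Fars2, a mitochondrial phenylalanine tRNA synthetase gene (0.990). Every candidate already differed between the genotypes by its deposited p-value, and 911, 505 and 1136 of them had r above 0.9 with Akt1, Akt2 and Pdpk1. The 6 points share a split into 2 genotypes, and a difference between them alone gives a high r.

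Around these kinases, 37 of 94 listed genes of the phosphoinositide 3-kinase and Akt pathway had a symbol. Over the array 5604 of 45037 probe sets had one. A gene can have several probe sets, so the share of genes and that of probe sets are not comparable. Of the 37, taken at the brightest probe set of each, 3 fell past an adjusted p under 0.05 in the knockout lines and 0 rose (limma, over all 45037 probe sets), where 0.74% of all named genes were called, 0.672% as lower and 0.0672% as higher. Over the whole array 48 probe sets were called, which is 0.107% (0.0977% lower and 0.00888% higher). The 24 lower and 13 higher genes had a median difference of -0.58 log2 units, against -0.16 over all named genes, of which 50.9% were lower. The list was chosen with earlier results of these data known, so these shares and medians are a description. At an unadjusted p under 0.05 there were 30, where each named probe set already had a deposited p-value under that limit. The number of calls changed when a line was left out: 5 genes were called without knockout line 75, and 0 without any other line. Each of these fits also had fewer arrays, and the cause of the change was not tested.

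Upstream of the members, receptors and adaptors had 3 of 11 genes named and none passed. Irs2, which links the insulin receptor to phosphoinositide 3-kinase, averaged 10.34 ± 0.49 in wild-type and 8.64 ± 0.91 in knockout lines (SD, n = 3; limma, adjusted p = 0.182). The adaptor gene Grb2 differed by -0.69 and the insulin receptor gene Insr by 0.30. Of 7 phosphoinositide 3-kinase subunit genes 2 were named, the catalytic subunit gene Pik3ca at 0.70 higher (adjusted p = 0.119) and the regulatory subunit gene Pik3r3 at 0.27 higher. Neither passed, and their sign was opposite to that of Pdpk1, Akt1 and Akt2.

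Of 5 genes for enzymes that remove phosphates from PIP3 or its products, 3 were named. The mean of Inppl1 was 10.69 ± 0.04 with Akt1 and 8.97 ± 0.02 without it (SD, n = 3). The lines of a genotype were almost level, and Inppl1 fell by 1.72 log2 units (SE 0.11; limma, adjusted p = 0.0295). Inpp4b, which acts on PI(3,4)P2, was dim at 2.59 and 2.89 and differed by 0.29.

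Among genes whose products act directly on Akt, Hsp90ab1, a chaperone that binds Akt, passed. It averaged 9.54 ± 0.15 in wild-type and 8.02 ± 0.10 in knockout lines (SD, n = 3) and fell by 1.52 (SE 0.14; limma, adjusted p = 0.0346), a call that the equal-variance test ended (adjusted p = 0.152). All 3 named Akt binding genes of 10 were lower. Trib1, a pseudokinase gene, differed by -1.34 and the kinase co-chaperone gene Cdc37 by -0.58, and neither passed. Of 7 mTORC2 genes, Mapkap1, which encodes the subunit SIN1, differed by -0.79 and Mtor, listed as Frap1, by -0.30. Of 7 Akt phosphatase genes 3 were named and none passed. The protein phosphatase 2A scaffold genes Ppp2r1b and Ppp2r1a differed by -1.15 and -0.66, and on their other probe sets by -0.75 and -1.59. The catalytic gene Ppp2ca differed by 0.75, with another of its probe sets at -0.37. Of the related kinases listed, Sgk2 differed by 0.28 and did not pass.

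Akt substrates went both ways, with 5 of 10 named genes higher and 5 lower, of 24 listed. Cdkn1b, which encodes the cell cycle inhibitor p27, read 6.95, 5.93 and 6.29 in lines 31, 101 and 102 and 3.56, 3.96 and 3.75 in lines 72, 75 and 116. It fell by 2.63 (SE 0.27; limma, adjusted p = 0.0422), and both median centring of the arrays (adjusted p = 0.0559) and the equal-variance test (adjusted p = 0.201) ended the call. The transcription factor gene Foxo1 differed by -0.72 on its brightest probe set and by -0.71 and 0.59 on others. The kinase gene Gsk3b was 1.11 higher on its brightest probe set and 0.80 higher on its dimmest named one. Its other named probe set, at 9.63 ± 0.05 against 8.42 ± 0.13 (SD, n = 3), fell by 1.20 (limma, adjusted p = 0.0422). Of the 13 pathway genes with several named probe sets, 5 had probe sets in both directions.

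Other kinases that Pdpk1 phosphorylates had 7 of 13 genes named, 5 lower and 2 higher, and none passed. The protein kinase C genes Prkcz and Prkcd differed by -0.84 and -0.53. In the mTORC1 arm, which Akt activates, 3 of 6 genes were named, all lower and none passing: the cap-binding factor gene Eif4e (-0.85), the ribosomal protein gene Rps6 (-0.43) and the raptor gene Rptor, listed as 4932417H02Rik (-0.37).

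**Figure D4:**
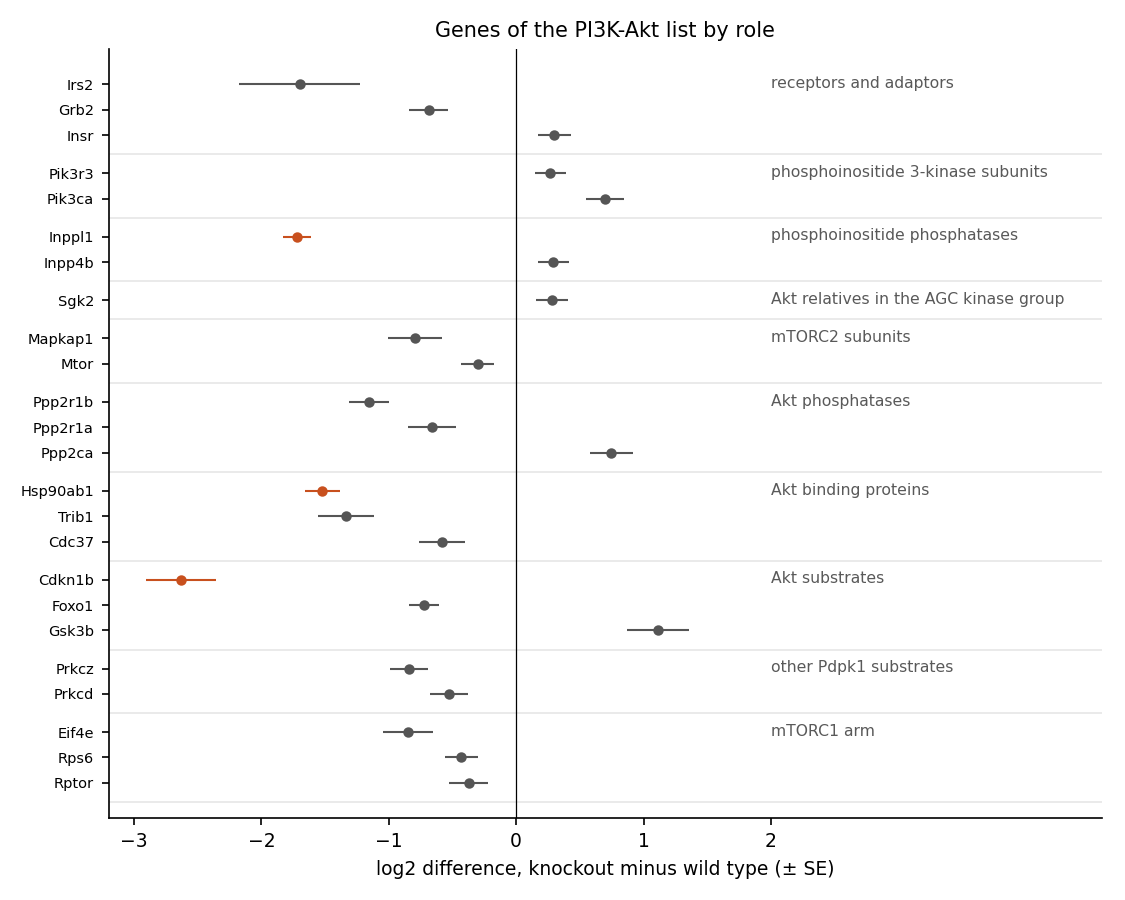
The log2 difference, knockout minus wild type, with limma standard errors, for 24 of the 37 pathway genes with a symbol at their brightest probe set, grouped by role. The 3 genes in orange, Inppl1 (-1.72), Hsp90ab1 (-1.52) and Cdkn1b (-2.63), passed an adjusted p under 0.05, and 17 of the 24 lie below 0. The plotted genes come from the up to 3 of smallest limma p-value in each role. Of all 37 genes 24 were lower, as were 50.9% of all named genes.

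In the authors' deposited pathway sheet Akt1 is listed in 6 of 12 KEGG pathways, Pdpk1 in 2 and Akt2 in 0. Both Akt1 and Pdpk1 are listed under focal adhesion, where 17 of 20 genes are lower in the authors' deposited table, and under mTOR signalling, where 6 of 6 are. Of all named genes 50.9% were lower, as were 44 of the 48 probe sets that limma called. The share lower among the genes from which the sheet was drawn is not given here, so nothing is read from these counts. Akt1 alone of the members is also listed under tight junction, Jak-STAT signalling, pancreatic cancer and adipocytokine signalling. The signed folds given for Akt1 and Pdpk1 in the authors' deposited table, -42.8 and -2.09, equal the differences of the probe sets 1416657_at and 1416501_at above on a linear scale.

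The arrays were close to each other across probe sets, with correlations of 0.969 to 0.981 within and 0.962 to 0.979 between genotypes. Of 15 luminal epithelial markers 6 carried a symbol, of which 4 were higher and 2 lower without Akt1. The differences were 0.31 for Krt8, 0.80 for Epcam, 1.67 for Cldn3, 1.33 for Xbp1, -0.70 for Cdh1 and -0.48 for Cldn7. Krt5, the only named one of 9 basal markers, was higher, from 4.72 to 5.04 in wild-type and from 5.38 to 5.67 in knockout lines. None of 10 fibroblast markers was named. The 3 of 10 leukocyte markers that were named, Laptm5, Coro1a and Cd8a, summed to 8.79 to 9.35 log2 units in wild-type and 8.16 to 8.46 in knockout lines. The summed level was therefore lower in the same lines as the members, with Coro1a and Laptm5 lower and Cd8a higher. Plvap, the named one of 5 endothelial markers, ran from 8.79 to 10.24 and from 7.93 to 8.44, and Lipe of 5 adipocyte markers from 5.86 to 5.98 and from 5.18 to 5.44. None of the 12 named markers passed limma's adjustment over the array, where 0.74% of all named genes did. Of the 12, 11 had an unadjusted limma p under 0.05, but a symbol already required a deposited p-value under 0.05. The part of the markers in the differences of the members was not tested. In bulk RNA, fewer cells of a type and less RNA per cell cannot be told apart.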

How the data were processed

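Total RNA of 6 cell lines was amplified by whole-transcript priming and biotin-labelled according to the labels' protocols. Log2 expression values were deposited by the authors for 45037 probe sets and 64 controls, in a workbook and in a value table that agree to within 5e-09; the sources used here do not give scanning, background correction, summary or normalization. The deposited p-values equal those of an equal-variance test of the log2 values to within 3.27e-09. A deposited log2 difference and a deposited score accompany each p-value under 0.05.

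Differences were fitted in R 4.3.3 by limma 3.58.1 (lmFit, then eBayes, knockout minus wild type, no covariate), with Benjamini-Hochberg adjustment over the 45037 probe sets and a threshold of 0.05. The fit was also run on simulated arrays with independent noise drawn from limma's own model. Such arrays hold no shared differences between lines, so nothing is read from them here. Precision is limited by the number of arrays, 3 a group; the median standard error was 0.18 log2 units. Old symbols were updated through RefSeq symbols and unique synonyms, and a gene was represented by its brightest named probe set. The members and lists were chosen with earlier results of these data known. Genes named are all members, up to 3 of smallest p-value per pathway role, the 4 most alike genes per member (Gm and Rik names left out) and the named genes within 10 protein-coding places of each member; a few of these are counted but not reported here. Alternatives were quantile normalization, median centring, a filter on dim probe sets (those under the 0.25 quantile of the mean), an intensity trend, the equal-variance test, group medians, any named probe set for a gene, and leaving out each line.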

Additional observations from a re-analysis of the deposited data

How the results depend on the processing

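The differences of all 4 member probe sets kept their sign under quantile normalization and median centring. Group medians and leaving out a line could not change the sign, because the groups did not overlap. The dim filter left the difference of each member as it was. Without each line in turn the differences ran from -5.53 to -5.35 and from -3.15 to -2.94 for the Akt1 probe sets. For Pdpk1 they ran from -1.16 to -0.99 and for Akt2 from -0.82 to -0.48. The count of 48 called probe sets ran from 1 to 327 without each line, the 327 without knockout line 75, and was 3 with the equal-variance test; other settings gave 33 to 62. The count of 3 called pathway genes ran from 0 to 5 without each line, was 1 with the equal-variance test and 4 with any named probe set. The cause of these shifts was not tested. Of 285 values for 26 single pathway genes under an alternative, 265 stayed on the same side of the threshold, 18 lost it, 2 gained it and 0 changed sign. Most of the 265 belonged to genes that had not passed. All 18 losses fell on the 3 called genes, each of which lost its call in 5 of 6 fits without a line. Leaving out a line could not change a sign, because the groups did not overlap for these genes. The adjusted p over the alternatives ran from 0.0057 to 0.163 for Inppl1, 0.037 to 0.163 for Hsp90ab1 and 0.0401 to 0.201 for Cdkn1b. No paired analysis was possible because the genotypes share no line number.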

Other observations

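Genes that lie next to the members on the chromosome were looked up in the RefSeq order of protein-coding genes, 10 places to each side. Around Akt1 on chromosome 12, 4 of 20 neighbours were named and all 4 were lower in the knockout lines, where 50.9% of all named genes were lower. The formin gene Inf2, 3 places before Akt1, averaged 7.03 ± 0.26 in wild-type and 6.18 ± 0.24 in knockout lines (SD, n = 3). The centrosomal protein gene Cep170b, 3 places after it, averaged 9.60 ± 0.16 and 8.51 ± 0.23. Pld4, a phospholipase D family gene, differed by -1.05 and Cdca4 by -0.78 log2 units. None of the 4 passed (limma, adjusted p from 0.0725 to 0.197; all 4 at an unadjusted p under 0.05), and a neighbour that differed less would have no name.

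Around Akt2 on chromosome 7, 3 of 20 neighbours were named, with Pld3 at -1.03 and the zinc finger genes Zfp60 and Zfp626 at 0.52 and 0.73. Around Pdpk1 on chromosome 17, 3 of 20 were named: the proton pump subunit gene Atp6v0c at -0.32, Tbc1d24 at 1.36 and the lipid transporter gene Abca3 at -0.89. None of these 6 passed (limma; 5 at an unadjusted p under 0.05).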
